A study of Homo sapiens with 12 samples.

Results

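The transcriptome of HEK293T cells that received no plasmid was described from 4 of the 12 RNA-seq libraries of a study of dCas9-VP160, in which a nuclease-dead Cas9 carries a viral activation domain. All 4 control libraries were taken, and no other choice was made. They came from 2 experiments on distinct cell batches, each with a pair of technical replicates. Cells were seeded in dishes of 100 mm, 24 h before transfection, and harvested 48 h after it, and each library started from 1 ng of RNA. The other groups received 5.4 pmol of plasmid carrying dCas9-VP160, with or without 6 guide RNAs for the CD34 promoter. They are used here only to place the spike-in shares of the control libraries. The labels call the control cells non-transfected in one place and treated with the transfection reagents alone in another, so the effect of the reagents cannot be told apart from the growth state of the cells. The groups share the cell line, a single established line, and nothing was compared with a treatment.

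HEK293T cells derive from human embryonic kidney cells that were transformed with a fragment of adenovirus DNA and later given the large T antigen of simian virus 40. The adenoviral and simian proteins bind and disable tumour suppressor proteins, the RB protein among them, and large T antigen also drives replication of plasmids that carry its origin, which is why the line is widely used for transfection, protein production and virus packaging. Its tissue of origin has been debated, because the line carries genes of kidney progenitors, adrenal cells and neurons in different reports.

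The 4 libraries held 8472128 to 11349564 counts in genes and detected 26919 to 28186 genes each. A level is given in CPM, the count per 1000000 gene counts of a library, and as mean ± SD of the 2 experiments (n = 2) after the technical replicates of each were summed. Comparisons between genes use TPM, in which counts are first divided by the exon length of the gene, over all exons of all its annotated transcripts. This length can exceed that of the transcript a cell makes, so a rank by TPM also depends on the annotation. A gene is called present at 1 CPM or more in all 4 libraries, undetected at 0 counts in all 4, and low otherwise. A count of 0 allows up to 0.264 to 0.354 CPM, depending on the library, which is what 3 counts are worth; this limit covers counting error only. Across the 15998 genes present, the log2 CPM of 2 technical replicates correlated at r = 0.993 in both experiments, and libraries of different experiments at 0.989 to 0.991; genes are not independent replicates. No 2 libraries agreed within counting noise. Spike-in sequences, which are synthetic RNAs added to a sample, took 0.719% and 0.404% of counts in replicates 1 and 2 of experiment 1 and at most 0.00818% in the other 10 libraries of the series; they were left out of every total.

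Of the 60604 gene rows of the table, 15998 were present, 18128 were low and 26478 were undetected. Only 2075 genes reached 100 CPM in all 4 libraries and 34 reached 1000 CPM. Among 19629 protein-coding genes, 12970 (66.1%) were present, 4055 were low and 2604 were undetected, and the median level was 12.7 CPM. These figures are the background against which the gene lists below are read. In bulk RNA a low level can come from few cells with much of a transcript or from many cells with little, and these cannot be told apart.

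The gene with most counts was MT-RNR2, the large ribosomal RNA of mitochondria. Its libraries gave 51854 and 51793 CPM in experiment 1 and 52640 and 49249 CPM in experiment 2. MT-RNR2 alone held 4.92% to 5.26% of all counts in a library. The 13 protein genes of the mitochondrial genome were all present, and mitochondrially encoded genes took 8.53% ± 0.0040 (SD, n = 2) of counts. Single libraries ranged more widely than this SD, from 8.31% to 8.78%. MT-CO1, a subunit of cytochrome c oxidase, was the protein gene with most counts at 8050 ± 718 CPM (n = 2). On the length-scaled level MT-CO2 and MT-CO3, subunits of the same enzyme, stood above it, at 22479 ± 2459 and 21519 ± 1802 TPM (n = 2) against 16985 ± 1668 TPM for MT-CO1.

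**Figure D1:**
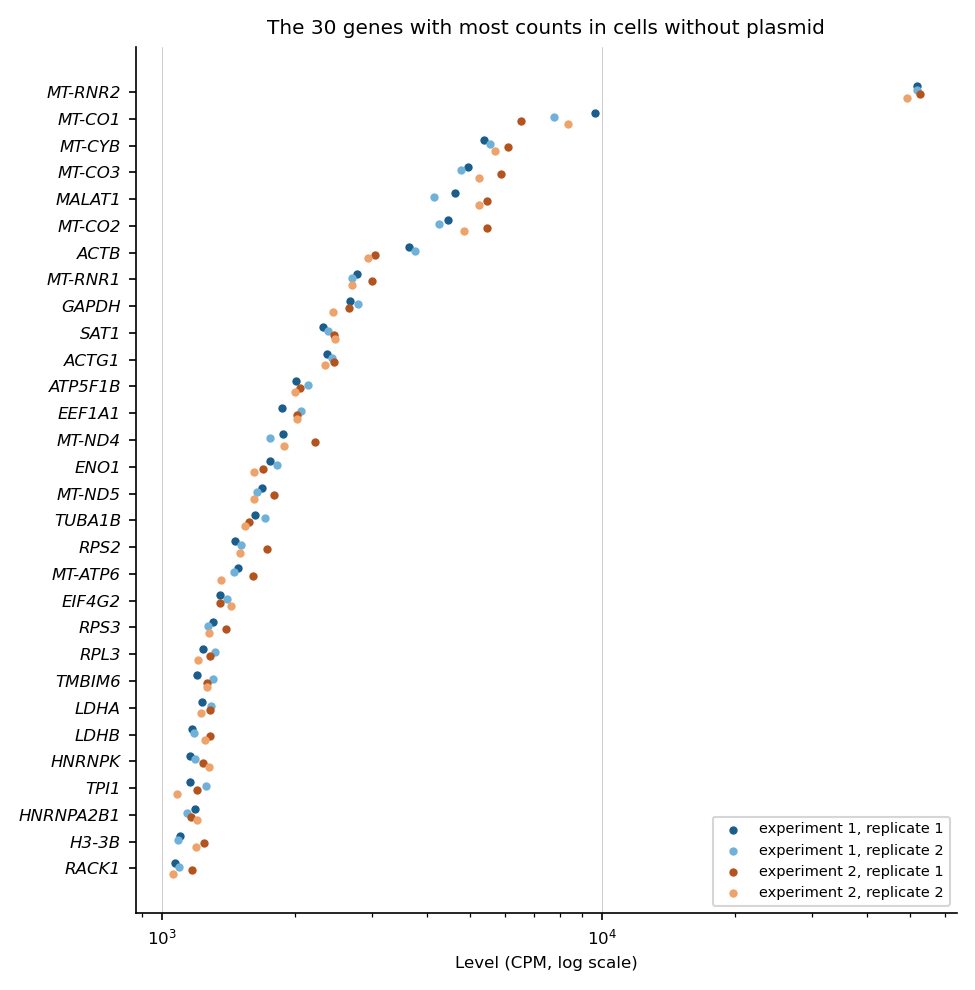
Level of the 30 genes with the highest mean CPM in cells without plasmid, with 1 point for each of the 4 libraries; the horizontal axis is CPM on a log scale. MT-RNR2 stands apart near 51296 CPM, and for most genes the 4 points lie close together. The experiments do not overlap for MALAT1 and ACTB, nor for several others such as MT-CO2 and SAT1.

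MALAT1, a long noncoding RNA kept in nuclear speckles, had the highest count of any nuclear gene. Its level was 4636 and 4146 CPM in experiment 1 and 5469 and 5241 CPM in experiment 2, so the experiments did not overlap. ACTB, the beta actin of the cytoskeleton, stood at 3628 and 3758 CPM in experiment 1 and 3039 and 2935 CPM in experiment 2, again without overlap but in the other direction. GAPDH, a glycolytic enzyme often used as a reference gene, had 2668 and 2784 CPM in experiment 1 and 2662 and 2447 CPM in experiment 2. These did not overlap either, but lay close, and the difference was not called by edgeR (log2 fold change -0.08 ± 0.068 SE, adjusted p 0.534). SAT1, which acetylates the polyamines spermidine and spermine, reached 2406 ± 77.0 CPM (n = 2), a place in the 10 highest counts beside the housekeeping genes. After length scaling it stood at 3132 ± 71.9 TPM (n = 2) against 3090 ± 499 TPM for ACTB, a difference smaller than the SD of ACTB. ATP5F1B, the catalytic subunit of ATP synthase, stood at 2879 ± 86.9 TPM and ACTG1, the gamma actin, at 2606 ± 30.9 TPM (n = 2 for each).

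Other genes among the 30 highest by count carried out translation (EEF1A1, RPS2, RPS3, RPL3, RACK1, EIF4G2), glycolysis (ENO1, LDHA, LDHB, TPI1), RNA binding (HNRNPK, HNRNPA2B1), chromatin packing (H3-3B) and microtubule assembly (TUBA1B). FTL and TMSB10, a ferritin subunit and a small actin-binding protein, entered the 30 highest only on the length-scaled level, at 2867 ± 261 and 2768 ± 7.80 TPM (n = 2). The histone gene H4C3 stood at 5808 ± 740 TPM (n = 2), the highest nuclear protein gene on that scale. By count it was at 777 ± 106 CPM. Its annotated exon length was 435 bases, against 3519 for ACTB and 2981 for GAPDH, so this rank depends on the lengths used. How fully the library method captured each kind of transcript was not tested. Levels of histone genes and of MT-RNR2 are therefore shares of counts and not amounts in the cell. Together the 100 highest genes held 18.05% to 18.79% of the counts of a library, and 1323 to 1398 genes were needed to reach the midpoint of the counts.

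By gene type, protein-coding genes took 89.6% ± 0.050 (n = 2) of counts and the 2 mitochondrial ribosomal RNAs 5.41% ± 0.067. Genes annotated as antisense took 2.19% ± 0.022 and long intergenic noncoding genes 1.52% ± 0.13. Single libraries ran from 89.4% to 89.8% for protein-coding genes and from 5.19% to 5.56% for the mitochondrial ribosomal RNAs. Of 7176 long intergenic noncoding genes 7.07% were present, against 29.4% of 5394 antisense genes and 1.03% of 10115 processed pseudogenes. NEAT1, the RNA scaffold of paraspeckles, at 408 ± 10.7 CPM, and NORAD, a cytoplasmic RNA that binds Pumilio proteins, at 221 ± 24.8 CPM (n = 2 for each), followed MALAT1 among intergenic genes. GAS5, a host of small nucleolar RNAs, stood at 106 ± 5.88 CPM, TUG1 at 208 ± 6.70 CPM and HOTAIR, transcribed from the HOXC cluster, at 2.97 ± 0.34 CPM (n = 2 for each). H19, an imprinted RNA of fetal tissues, was low at 0.127 ± 0.11 CPM, and MEG3, an imprinted RNA often lost in tumours, was undetected.

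Several of the highest noncoding levels came from genes whose exons lie wholly or partly within exons of other genes. Reads without strand from the shared bases cannot be told apart between the genes. The kits named in the labels do not mark the strand, although the series text calls the sequencing directional. The antisense genes ENSG00000269968 and ENSG00000265401 had 100% of their exon bases within exons of other genes and stood at 6021 ± 250 and 4117 ± 1.01 TPM (n = 2). TUBA1B-AS1, with 80.2% shared bases, and MIF-AS1, with 46.5%, were at 941 ± 41.0 and 969 ± 99.1 CPM (n = 2). Of the 1585 antisense genes present, 92.0% shared exon bases with another gene, against 49.8% of present protein-coding genes. The median share of bases was 28.3%, and 14.8% of the antisense genes had at least 90%, where the level is most uncertain. The opposite case also occurred: 311 (11.9%) of the 2604 undetected protein-coding genes had at least 90% of their exon bases inside another gene, compared with 40 (0.308%) of the present ones, and an undetected gene of that kind cannot be called absent. Of the 312 listed genes below that were low or undetected, none had 90% overlap and 5 had at least 70%, among them TERC (81.0%).

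Promoters of vertebrate genes fall into a class rich in CG pairs, the CpG islands of broadly used genes, and a class poor in them, which many tissue-restricted genes carry. RefSeq promoters on GRCh38.p14, each 300 bases from 250 before to 50 after the start site, were matched by symbol to 10534 of 12956 present protein-coding genes, to 2896 of 4054 low ones and to 1767 of 2602 undetected ones. The median number of CG pairs was 27 in promoters of present genes, 8 in those of low genes and 4 in those of undetected genes, against 14 over all 27305 promoters of the table. At least 15 CG pairs were found in 83.2%, 35.1% and 19.5% of the promoters in the same order, and in 48.8% of all. The motif TATAAA, a form of the TATA box, read on the strand of the gene from position -40 to -15 relative to the start site, was in 1.61%, 7.25% and 9.96% of these promoters and in 2.55% of all. Its reverse complement TTTATA in the same window was in 0.522%, 0.932% and 1.30%, and in 0.714% of all. Of the 100 nuclear protein-coding genes highest by TPM, 86 had a matched promoter, with TATAAA in 9.30% and TTTATA in 4.65%. TATAAA was thus not scarcest in the genes with the highest levels.

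**Figure D2:**
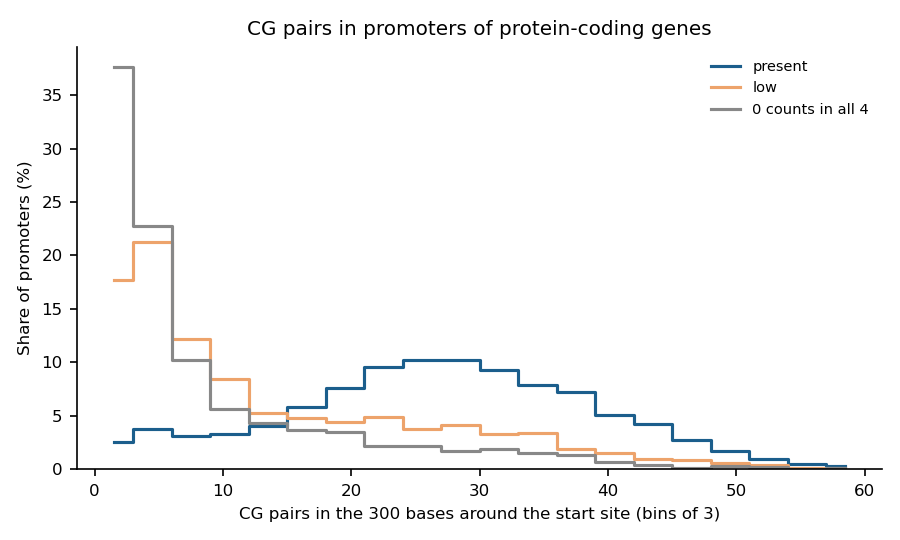
Share of promoters (vertical axis, %) by the number of CG pairs in the 300 bases around the start site (horizontal axis, in bins of 3) for protein-coding genes that were present, low or without a count in cells without plasmid. Promoters of present genes spread around a median of 27 pairs, whereas those without a count pile up at the left, around a median of 4.

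To show the contrast, 110 bases (position -100 to 10, with no position 0) are given for the 3 nuclear protein genes with most counts among those matched, and for 3 tissue-restricted genes with at most 2 counts over the 4 libraries: UMOD, the urinary protein of the kidney tubule, KRT5, a keratin of basal epithelium, and ALB, the serum albumin of liver. Each is written 5′ to 3′ on the strand of its gene, and capitals mark CG pairs.
GAPDH, chr12:6535164-6535273, plus strand: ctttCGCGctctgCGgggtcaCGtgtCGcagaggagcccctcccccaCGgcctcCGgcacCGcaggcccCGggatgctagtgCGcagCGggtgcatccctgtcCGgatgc
SAT1, chrX:23783073-23783182, plus strand: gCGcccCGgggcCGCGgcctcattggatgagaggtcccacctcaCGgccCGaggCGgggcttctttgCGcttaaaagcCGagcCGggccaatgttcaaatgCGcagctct
ACTG1, chr17:81512790-81512899, minus strand: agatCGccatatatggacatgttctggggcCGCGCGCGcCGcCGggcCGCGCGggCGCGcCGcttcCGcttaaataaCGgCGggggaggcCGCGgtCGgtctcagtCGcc
UMOD, chr16:20352706-20352815, minus strand: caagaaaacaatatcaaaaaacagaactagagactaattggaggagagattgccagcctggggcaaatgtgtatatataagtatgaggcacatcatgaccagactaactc
KRT5, chr12:52520385-52520494, minus strand: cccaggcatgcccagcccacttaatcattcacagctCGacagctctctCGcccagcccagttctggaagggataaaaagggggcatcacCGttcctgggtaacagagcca
ALB, chr4:73404187-73404296, plus strand: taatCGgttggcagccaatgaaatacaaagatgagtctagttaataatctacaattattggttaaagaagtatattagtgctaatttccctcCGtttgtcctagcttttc
The GAPDH, SAT1 and ACTG1 stretches hold 12, 11 and 20 CG pairs, and those of UMOD, KRT5 and ALB hold 0, 3 and 2. UMOD and KRT5 had 0 counts, and ALB had 2 counts in all.

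Genes of the translation apparatus share another feature. Their transcripts often begin with a run of pyrimidines, the TOP motif, through which their translation is tuned by mTOR signalling. The letters CTTT, read on the strand of the gene from position -10 to 10, were found in 53.03% of the 66 cytosolic ribosomal protein promoters that matched, in 7.81% of the promoters of present genes and in 8.83% of all promoters of the table. The reverse complement AAAG in the same window was in 3.03%, 4.07% and 6.49%. The elongation factor EEF1A1, the 4 ribosomal protein genes with most counts among those that hold CTTT in this window, and the 2 with most counts among the matched promoters that lack it (RPL3 and RPS18) are shown from position -30 to 20, with CTTT near the start site in capitals.
EEF1A1, chr6:73521013-73521062, minus strand: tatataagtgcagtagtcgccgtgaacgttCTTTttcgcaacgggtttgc
RPS3, chr11:75399488-75399537, plus strand: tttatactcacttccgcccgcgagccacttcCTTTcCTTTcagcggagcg
RPS19, chr19:41860225-41860274, plus strand: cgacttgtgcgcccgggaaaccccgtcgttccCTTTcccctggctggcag
RPL7A, chr9:133348188-133348237, plus strand: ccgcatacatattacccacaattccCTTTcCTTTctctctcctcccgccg
RPS14, chr5:150449720-150449769, minus strand: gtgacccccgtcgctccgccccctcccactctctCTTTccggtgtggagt
RPL3, chr22:39319604-39319653, minus strand: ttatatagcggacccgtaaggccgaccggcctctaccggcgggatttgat
RPS18, chr6:33272045-33272094, plus strand: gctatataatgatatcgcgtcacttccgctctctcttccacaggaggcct
EEF1A1 stood at 2001 ± 27.7 CPM and the 4 ribosomal protein genes that hold CTTT between 656 ± 29.3 CPM for RPS14 and 1307 ± 31.6 CPM for RPS3 (n = 2 for each). RPL3 and RPS18, which lack CTTT, lay in the same range at 1260 ± 31.4 and 830 ± 99.2 CPM (n = 2 for each). The printed RPS18 stretch still has a run of pyrimidines from the start site on, so lacking CTTT is not the same as lacking the TOP motif. Of 84 cytosolic ribosomal protein genes, 82 were present.

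Kidney develops from progenitors of the metanephric mesenchyme, which carry transcription factors such as SIX2, WT1 and EYA1 and answer to signals such as GDNF and WNT proteins; the mature nephron then makes its own transporters and filtration proteins. Of 23 developmental factors of the kidney, 17 (73.9%) were present, close to the 66.1% of all protein-coding genes, and the median was 5.86 CPM against 12.7 CPM. WNT11, a ligand made at the tip of the ureteric bud, was the highest on the length-scaled level at 36.5 ± 4.38 TPM (n = 2), and its libraries gave 25.9, 31.5, 27.5 and 22.7 CPM. SIX2 and SIX4, homeobox factors of progenitors, stood at 12.9 ± 0.60 and 29.4 ± 3.1 CPM (n = 2). WT1, needed for progenitors and podocytes, was present at 7.55, 7.49, 6.92 and 8.61 CPM in the 4 libraries. PAX2, a factor of nearly all renal progenitors, lay at the edge of the threshold with 1.18, 0.969, 0.681 and 1.11 CPM, and was therefore counted as low. HNF4A, a factor of the proximal tubule, was undetected.

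Genes of the differentiated nephron were scarcer, with 5 of 19 (26.3%) present. PODXL, a sialomucin of podocytes that other cells make too, held 71.7% of the summed TPM of the list, at 17.8 ± 1.74 TPM (n = 2), and its libraries ranged from 34.3 to 42.8 CPM. LRP2, the endocytic receptor megalin, at 9.46 ± 0.25 CPM, and AQP1, a water channel, at 2.49 ± 0.019 CPM (n = 2), were the next by CPM. SLC34A1, SLC22A6, UMOD and CDH16, genes of tubule segments, were undetected.

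**Figure D3:**
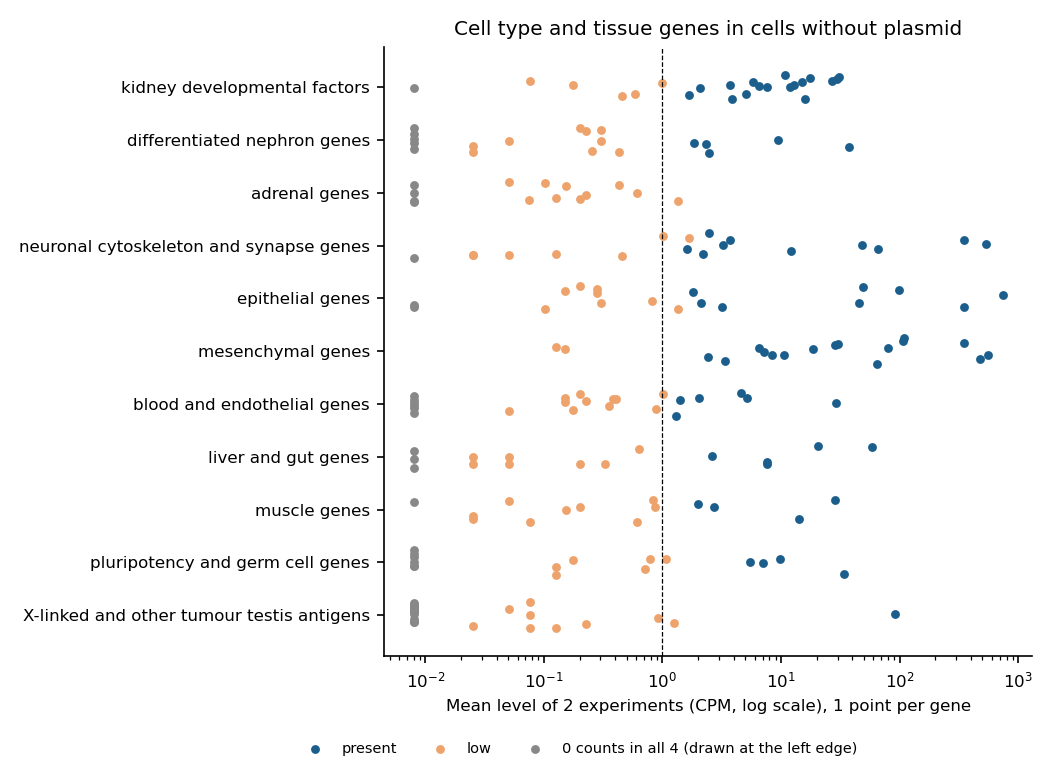
Mean CPM of 2 experiments (log scale) for each gene of 11 lists of tissue and cell type genes, 1 point per gene; the dashed line marks 1 CPM, and genes with 0 counts in all 4 libraries are drawn at the left edge. Mesenchymal genes and kidney developmental factors lie mostly to the right of the line, adrenal genes and testis antigens mostly to the left.

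The adrenal list, which covers steroid synthesis and catecholamine genes, had 0 of 14 genes present. PNMT, which makes adrenaline, was the highest with 0.944, 1.76, 1.36 and 1.20 CPM, and without replicate 1 of experiment 1 it would count as present, making 1 of 14. CYP17A1, NR5A1, TH and DBH were each below 0.7 CPM. CYP11B1, CYP21A2 and MC2R were undetected. The summed level of the list was 2.50 to 4.23 CPM in the 4 libraries.

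Of 18 neuronal cytoskeleton and synapse genes, 10 were present (55.6%). UCHL1, a ubiquitin hydrolase abundant in neurons, had 499, 635, 483 and 496 CPM, and NEFL, the light neurofilament subunit, had 322, 334, 369 and 366 CPM. These 2 genes made most of the summed level of the list, 1024 CPM on average. MAP2 and MAPT, proteins bound to microtubules, were present at 65.5 ± 5.6 and 12.2 ± 0.055 CPM (n = 2), whereas DCX and the RNA-binding genes ELAVL3 and ELAVL4 were at most at 0.0507 CPM and STMN2 was undetected. TUBB3, the beta tubulin used as a neuronal marker, had 18 counts in all 4 libraries together; 35.8% of its exon bases are shared with another gene, and the part of this in the value was not tested.

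Epithelial and mesenchymal genes were both found. KRT8 and KRT18, which pair into the keratin filaments of simple epithelia, stood at 740 ± 36.1 and 348 ± 1.09 CPM (n = 2). Their length-scaled levels were 349 ± 13.9 and 351 ± 2.08 TPM, and this closeness rests on the annotated exon lengths used. By contrast CDH1, the cadherin of epithelial junctions, had 0.708, 0.617, 1.02 and 0.926 CPM and EPCAM at most 0.681 CPM in any library, and GRHL2, a factor of epithelial identity, was undetected. Of 18 mesenchymal genes 16 (88.9%) were present. SPARC, a matrix protein, led the list at 321 ± 24.3 TPM, followed by VIM, the vimentin filament, at 222 ± 11.97 TPM and FN1, fibronectin, at 105 ± 18.4 TPM (n = 2 for each). CDH2, the cadherin of mesenchyme and neurons, had 113, 108, 101 and 112 CPM. The collagen chains differed: COL3A1 was at 108 ± 19.3 CPM and COL1A1 at 28.4 ± 2.4 CPM (n = 2), but COL1A2, the partner of COL1A1 in type I collagen, had 6 counts in all.

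Blood and endothelial genes had 6 of 23 members present. KIT, the receptor of stem cell factor, had 27.0, 30.6, 28.9 and 29.3 CPM, and CD34, a sialomucin of blood progenitors and the target of the guides in the other groups, had 1.53, 2.47, 1.59 and 2.41 CPM. PTPRC, the leukocyte antigen CD45, MS4A1 and the globins HBA1, HBB and HBG1 were undetected. Among liver and gut genes 5 of 15 were present, led by LGR5, a receptor of R-spondins in stem cells, at 58.6 ± 0.47 CPM, and FOXA1, a pioneer factor, at 20.6 ± 2.86 CPM (n = 2), while APOB and TTR were undetected. Of 14 muscle genes 4 were present, among them NKX2-5, a cardiac homeobox factor, at 14.1 ± 0.71 CPM (n = 2).

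LIN28B, which blocks maturation of let-7 miRNAs, and SOX2 were the pluripotency genes with the highest counts, with 40.2, 33.8, 27.9 and 33.8 CPM for LIN28B and 11.2, 6.08, 12.2 and 10.9 CPM for SOX2. POU5F1, their partner in stem cells, was low at 0.786 ± 0.042 CPM (n = 2), and NANOG, ZFP42, DPPA4, TDGF1, PRDM14 and DAZL were undetected. Of 22 testis antigens, genes silent outside the germ line and often active in tumours, only PRAME was present, with 91.5, 100.0, 86.0 and 86.4 CPM; without replicate 1 of experiment 2 the list had 2 present. MAGEC2 was low at 1.24 ± 0.31 CPM (n = 2), and 12 genes, among them MAGEA1, SSX2 and CTAG1B, were undetected.

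Transcription factor families were used in part. Of 39 HOX genes 29 were present, and HOXD13, used in the distal limb and hindgut, led with 45.3, 46.0, 46.7 and 50.7 CPM, and HOXB9 had 34.8, 33.4, 30.2 and 36.9 CPM. HOXB1 was undetected and HOXC12 had a mean of 0.0507 CPM. Of 9 PAX genes 5 were present; PAX6, a factor of eye and brain, was the highest by CPM at 54.7 ± 4.8 and PAX3, a factor of neural crest and muscle progenitors, the highest per length at 10.2 TPM, against 8.54 TPM for PAX6. SOX4, found in many progenitor cells, held 61.9% of the summed TPM of 19 SOX genes, with 333, 295, 407 and 351 CPM. Of 6 GATA factors, GATA2, GATA3, GATA4 and GATA6 were present between 7.90 and 16.9 TPM, whereas GATA1, the erythroid member, was low.

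The lists of receptor tyrosine kinases and of the Wnt, Notch, Hedgehog and TGF-beta pathways each had a larger share of genes present than the 66.1% of all protein-coding genes. Of 50 receptor tyrosine kinases 41 (82.0%) were present and none was undetected. PTK7, a pseudokinase of the Wnt polarity pathway, was the highest per length at 43.5 ± 7.66 TPM, followed by FGFR2 at 35.1 TPM, RYK at 33.0 TPM and FGFR3 at 32.2 TPM. ERBB2 and EGFR, receptors of the epidermal growth factor family, stood at 101 ± 11.4 and 49.0 ± 3.26 CPM (n = 2). ALK, ROS1, MUSK, MST1R, the neurotrophin receptor NTRK3, the angiopoietin receptor TEK, its relative TIE1 and CSF1R were among those that were low.

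For Wnt signals 42 of 50 genes were present. Among ligands WNT11 and WNT5B led, at 36.5 and 18.4 TPM, and WNT1 and WNT7A were undetected. WLS, which carries Wnt ligands to the cell surface, was the highest of the list at 114 ± 3.47 TPM, and CTNNB1, the transcriptional partner beta catenin, was at 104 ± 4.41 TPM (n = 2). FZD6 and FZD2 were the highest frizzled receptors, at 99.3 and 61.9 TPM. For Notch, 16 of 20 genes were present, with NOTCH2 at 52.99 ± 7.89, NOTCH3 at 33.3 and NOTCH1 at 20.4 TPM among the receptors, JAG1 at 19.9 and DLL3 at 18.9 TPM among the ligands, and the target gene HES4 at 333 ± 47.6 TPM (n = 2). For Hedgehog, 11 of 14 genes were present; the ligand SHH stood at 1.72 ± 0.13 CPM and DHH and IHH were low, whereas the coreceptor GAS1 reached 49.8 TPM and the effector GLI3 17.5 TPM. GLI1, the target by which pathway activity is often read, was low at 1.09 ± 0.26 CPM (n = 2). For TGF-beta and BMP, 30 of 34 genes were present, led by SMAD5 at 60.5 and the receptor TGFBR1 at 59.3 TPM, while the ligands NODAL and INHBA were low.

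Of 48 nuclear receptors, 33 (68.8%) were present. NR2F6 was the highest per length at 77.2 TPM and NR1D2, of the circadian clock, the highest by count at 111 ± 5.7 CPM (n = 2). NR3C1, the glucocorticoid receptor, had 80.0, 82.2, 87.1 and 87.2 CPM. The oestrogen receptors ESR1 and ESR2 were low, at 0.431 and 0.404 CPM on average, and PGR stood at 2.38 ± 0.018 CPM (n = 2). Among 17 adenosine, adrenergic and muscarinic receptors that matched the table, 6 were present. ADORA2B, which binds adenosine, had 23.7, 27.9, 23.7 and 22.4 CPM, and CHRM3, which binds acetylcholine, 34.7, 28.6, 34.4 and 33.3 CPM. ADRA1A, ADRB3 and CHRM2 were undetected. Of 28 G protein subunits 22 were present, and GNAS, the stimulatory alpha subunit, had the most counts at 986 ± 4.67 CPM (n = 2).

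**Figure D4:**
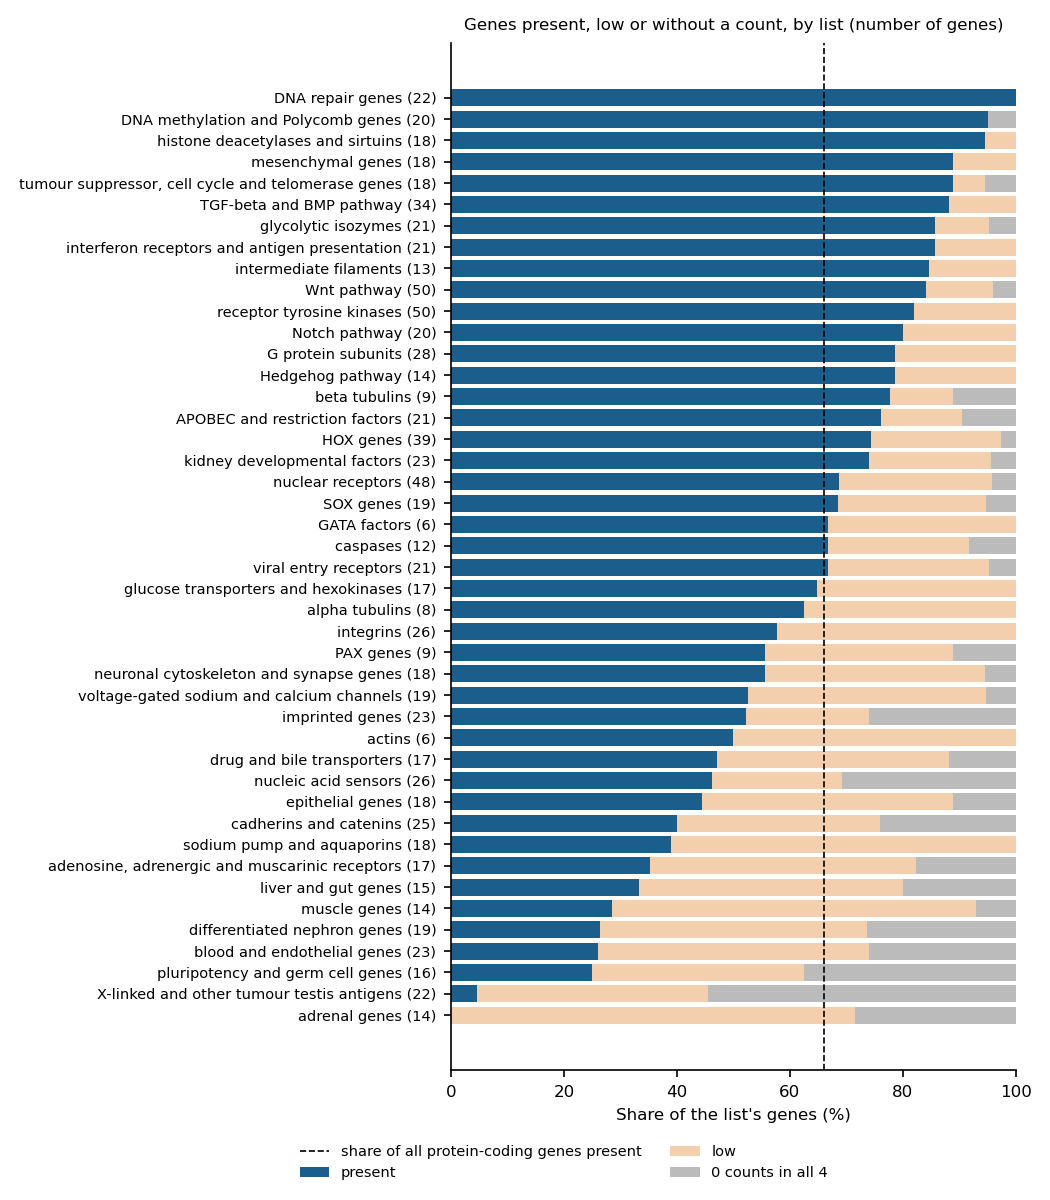
Share of each list's genes (horizontal axis, %) that were present, low or without a count in all 4 libraries, with the number of genes in brackets; the dashed line marks the 66.1% of all protein-coding genes that were present. Genome maintenance lists lie at the top, with 22 of 22 DNA repair genes present, and adrenal genes at the bottom, with 0 of 14.

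Among actins and tubulins a few genes held most of the summed level. ACTB and ACTG1 made up nearly all of the summed level of 6 actins, 5822 CPM on average, and ACTA2, the smooth muscle actin, was at 80.6 ± 2.2 CPM (n = 2). TUBB4B was the highest beta tubulin per length, with 52.3% of the summed TPM of 9 genes, and TUBA1B the highest alpha tubulin, with 66.6% of that of 8. Of 13 intermediate filament genes 11 were present, and NEFL, the highest per length at 261 TPM, held 32.1% of their summed TPM. Of 25 cadherins and catenins 10 were present, and CDH6, CDH9, CDH10, CDH11, CDH12 and CDH20 were undetected. ITGB1, the beta subunit shared by many integrins, held 57.9% of the summed TPM of 26 integrin genes. The leukocyte integrin genes ITGB2, ITGAL and ITGAM were low.

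Transporters and channels were present in part. Of the sodium pump, which keeps the ion gradients of the cell, the beta subunits ATP1B3 and ATP1B1 stood at 333 ± 45.4 TPM (n = 2) and 43.7 TPM, and ATP1A4, an alpha subunit of sperm, was low. HK1, the hexokinase of most tissues, was the highest of its list at 98.9 TPM, and among glucose transporters SLC2A3 (56.3 TPM) exceeded SLC2A1 (18.3 TPM). Of 17 drug and bile transporters 8 were present. ABCC5 had the most counts at 83.7 ± 2.2 CPM and ABCC1, at 74.8 ± 16 CPM, the highest level per length at 32.2 TPM. ABCB1, the P-glycoprotein, stood at 9.36 ± 0.82 CPM (n = 2). The organic ion carriers SLC22A2 and SLC22A8 were low and SLC22A6 and SLCO1B3 undetected. Of 19 voltage-gated sodium and calcium channel genes 10 were present, with SCN9A at 39.0, 39.5, 40.6 and 39.5 CPM and CACNA1H at 28.6, 31.7, 27.0 and 27.1 CPM. SCN9A forms a sodium channel of pain neurons and CACNA1H a calcium channel opened at low voltage.

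Innate sensing of nucleic acid starts with receptors such as CGAS for DNA in the cytosol, RIGI and IFIH1 for RNA, and Toll-like receptors in endosomes and at the surface; adaptors such as STING1, MAVS and MYD88 pass the signal on. Of 26 such genes 12 (46.2%) were present and 8 undetected. CGAS had 3 counts in the 4 libraries together, all in replicate 1 of experiment 2, while its adaptor STING1 was present at 37.8, 36.6, 31.5 and 28.1 CPM. Of genes that act on RNA, MAVS was at 131 ± 19.8 CPM, RIGI at 7.28 ± 1.17 CPM, IFIH1 at 7.23 ± 0.16 CPM and EIF2AK2, the kinase PKR, at 139 ± 2.12 CPM (n = 2 for each). TLR2, TLR4, TLR7, TLR8 and TLR10, the inflammasome sensor AIM2, its adaptor PYCARD and ZBP1 were undetected, and 59.7% of the exon bases of PYCARD are shared with another gene. TLR3 and TLR5 were present at 1.75 ± 0.26 and 2.26 ± 0.091 CPM (n = 2). Receptors for interferons and antigen presentation genes were present for 18 of 21 genes, with B2M, the light chain of MHC class I, at 361, 345, 424 and 405 CPM. Reads of the HLA genes can be shared among them, so single HLA values are uncertain.

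Restriction factors, which block viruses inside the cell, were present for 16 of 21 genes. IFITM3, which hinders fusion of virus with the membrane, was the highest per length at 245 ± 4.63 TPM (n = 2). Among cytidine deaminases APOBEC3C and APOBEC3B stood at 105 and 50.8 TPM, and APOBEC1 was undetected. MX1 was at 2.21 ± 0.019 CPM (n = 2) and MX2 at 0.152 CPM. Of 21 receptors for virus entry 14 were present. CXADR, the receptor for coxsackieviruses and many adenoviruses, had 109, 108, 117 and 133 CPM. TMPRSS2, a protease that primes viral surface proteins, had a mean of 0.355 CPM.

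Genes that keep the genome were nearly all present, with 22 of 22 DNA repair genes, 19 of 20 DNA methylation and Polycomb genes and 17 of 18 histone deacetylases and sirtuins. XRCC6, a subunit of the Ku dimer that binds DNA breaks, was at 691 ± 2.32 CPM and PARP1, which marks breaks with ADP-ribose, at 616 ± 46 CPM (n = 2). MGMT, which repairs alkylated guanine, was present at 45.7 ± 7.3 CPM (n = 2). DNMT1, the maintenance methyltransferase, stood at 47.7 TPM, above DNMT3B at 30.7 and DNMT3A at 6.10 TPM, and DNMT3L, its germ line cofactor, was undetected.

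Among the genes whose proteins the viral oncoproteins bind, RB1 had 121, 132, 118 and 137 CPM. CDKN1A, the cell cycle inhibitor p21, was the highest per length of 18 genes of tumour suppression, cell cycle inhibition and telomerase, at 526 ± 70.3 TPM, and MDM2, a ubiquitin ligase, had the most counts at 637 ± 39.4 CPM (n = 2). CDKN2A, which codes for the p16 and ARF inhibitors, had 151, 145, 185 and 155 CPM. TERT, the catalytic part of telomerase, had 4.37, 4.85, 3.97 and 3.98 CPM, while its RNA TERC, which has no poly(A) tail, was undetected, with 81.0% of its exon bases shared. Of 12 caspases 8 were present. The inflammatory caspases CASP1 and CASP5 were low and undetected. Of 23 imprinted genes 12 were present, and MEG3, NDN, PEG3, RTL1, SNRPN and ZIM2 were undetected, of which SNRPN shares 33.6% of its exon bases.

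Large gene families ranged from nearly all to nearly no members present. Of 517 genes named ZNF, most of which code for zinc finger factors, 458 (88.6%) were present. So were 77 of 78 mitochondrial ribosomal protein genes and 45 of 48 complex I genes named NDUF. Of 75 genes whose names start with RAB and a number, a set not limited to the RAB GTPases, 59 were present. Solute carriers, with 246 of 377 (65.3%), and TRIM genes, with 52 of 78 (66.7%), were near the 66.1% of all protein-coding genes. Of 55 keratins 7 were present, of 24 claudins 5 and of 41 chemokines 5. Of 45 genes named IL with a number, which include the receptors IL4R and IL6R, 7 were present. Only 2 of 383 olfactory receptor genes were present, with OR1F1 at 1.55 ± 0.17 CPM (n = 2), and 329 were undetected. No keratin-associated protein gene (0 of 94), beta defensin (0 of 39) or late cornified envelope gene (0 of 18) was present. By chromosome the share of protein-coding genes present ran from 47.8% on chromosome 21 to 72.5% on chromosome 2.

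The control libraries also show how far the 2 experiments differed without plasmid. They were compared across 17111 genes with edgeR's quasi-likelihood test and Benjamini-Hochberg adjustment. Cell batch and any difference in how the libraries were handled cannot be told apart. The spike-in shares differed too, at 0.719% and 0.404% in experiment 1 and 0.00818% and 0.0022% in experiment 2. Experiment 2 differed from experiment 1 at an adjusted p under 0.05 for 1561 genes (9.12% of those tested), of which 714 (4.17%) were higher and 847 (4.95%) were lower in experiment 2. The spread in this test is that of technical replicates, so it describes these 2 batches and no others. Differences were small, with a median size of 0.33 on the log2 scale among the called genes, and 51 (0.298%) reached a log2 fold change of 1 in either direction. The number depended on the libraries: it was 478 without replicate 1 of experiment 1, 220 without replicate 2 of experiment 1 and 866 without replicate 1 of experiment 2. DESeq2 called 445 of the 6338 genes to which it gave an adjusted p, and 180 of 34126 when its filter on mean counts was switched off, an alternative chosen after seeing the data.

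RAD23B, which hands damaged DNA and ubiquitinated proteins on for repair and breakdown, had 56.7 and 49.6 CPM in experiment 1 and 132 and 125 CPM in experiment 2 (log2 fold change 1.30 ± 0.082 SE, adjusted p 1.61e-30). APP, the amyloid precursor protein, rose from 83.9 and 66.0 to 123 and 129 CPM (0.77 ± 0.081), and ADIPOR2, an adiponectin receptor, from 19.8 and 22.1 to 43.2 and 41.5 CPM. H1-4, a linker histone, fell from 129 and 95.9 CPM to 47.1 and 46.2 CPM (-1.25 on the log2 scale, adjusted p 1.32e-14 by edgeR). The core histone genes H4C5, H2AC12 and H2AC20 were among the named falls. DESeq2 with its filter off did not call H2AC12 and H2AC20 (adjusted p 0.0986 and 0.0735). Histone genes did not all fall: H3-3A was among the named rises. From experiment 1 to experiment 2, H4C3 went from 702 to 852 CPM and H3-3B from 1090 to 1217 CPM. The groups of libraries did not overlap for any of these genes. The other named rises were H3P6, H3-3A, UBE2E1, MIR1282, NPM3, MRPL23 and DAZAP1, and the other falls ARHGAP8, MSMP, TCF20, ZNF649-AS1, NFKBID and C6orf47. NPM3, MRPL23, ZNF649-AS1 and NFKBID were no longer called by edgeR without replicate 2 of experiment 1 (adjusted p 0.216, 0.155, 0.293 and 0.144), nor were NPM3 and NFKBID without replicate 1 of experiment 2 (0.104 and 0.239). H3P6 is a pseudogene copy of a histone H3.3 gene, and MIR1282 lies wholly within exons of another gene, so reads of both are uncertain.

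**Figure D5:**
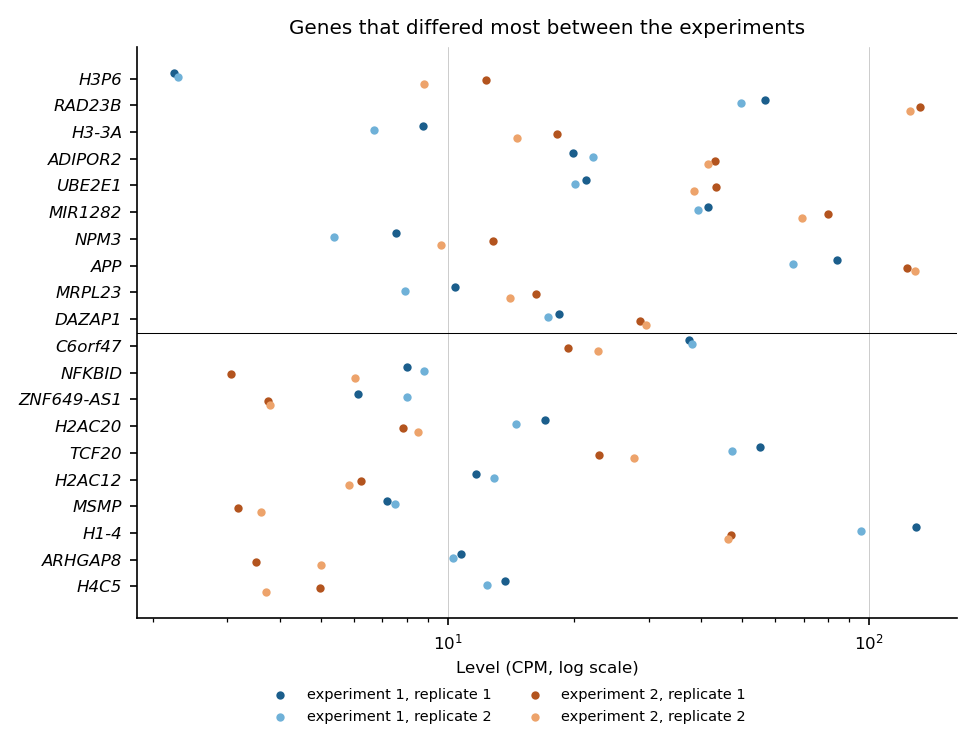
Level (CPM, log scale) in each of the 4 libraries of the 20 genes named as the largest rises (above the line) and falls (below it) from experiment 1 to experiment 2 in cells without plasmid. Blue points are experiment 1 and orange points experiment 2; the colours do not overlap for any gene, since the choice required it.

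Few genes of the cell type lists were called between the experiments. None of the tested members of the kidney (18), nephron (5), neuronal (12), epithelial (9), blood and endothelial (7), liver and gut (5), muscle (4) or pluripotency (4) lists was called, against 9.12% of all genes tested. Over all their members these lists had median levels of 0.152 to 5.86 CPM, against 12.7 CPM for all protein-coding genes. With few members and low counts, the lack of calls does not show that these genes were stable. Some had large differences that did not pass the test, such as NEFM and SYN1 of the neuronal list (-1.28 and -1.01 on the log2 scale). Of 16 mesenchymal genes tested, 2 (12.5%), FN1 and COL3A1, were called, both lower in experiment 2 (-0.33 and -0.35 on the log2 scale). Of 41 receptor tyrosine kinases 5 (12.2%) were called, all lower, PTK7, DDR1, TYRO3, EPHB2 and ROR2. Among the genes described above, ACTB was lower (-0.29 ± 0.068 SE, adjusted p 0.00175), and MALAT1 (0.30 ± 0.070, adjusted p 0.00142) and SOX4 (0.29 ± 0.069, adjusted p 0.00219) were higher in experiment 2 by edgeR.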

How the data were processed

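RNA was sequenced from HEK293T cells, and the authors deposited a table of raw counts per gene with whole numbers in 1 column per library; 12 columns matched the 12 libraries. The submitters' processing notes list hg38, Trim Galore 0.3.7, STAR 2.6.0c, Picard 2.17.1 and DESeq2 1.16.1 without their settings. Neither counting program nor annotation release is given in the sources used here. Gene types, exon lengths and coordinates came from GENCODE 29 (56812 of 60604 gene rows matched) and promoters from RefSeq on GRCh38.p14. CPM and TPM were computed from the deposited counts, with 92 spike-in rows left out. Genes of X inactivation, of the Y chromosome and some other list members are not reported here by name. The 46 lists (951 entries, 950 matched) and the group described were chosen with earlier results of these data known. Genes were named by rule: the 30 highest by CPM and by TPM, up to 8 present members of each list and those without a count, the 3 highest of each gene type, and the 10 largest called rises and falls at 5 CPM or more with libraries that did not overlap; others are named with their values. The experiments were compared with the robust quasi-likelihood test of edgeR 4.0.16 (R 4.3.3), after filterByExpr and TMM scaling, and with DESeq2 1.42.0, with and without its independent filtering, as an alternative. The test was first checked on simulated counts. Precision is limited by 8472128 to 11349564 counts per library.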

Additional observations from a re-analysis of the deposited data

Results flagged for a closer look

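In 5 groups of values 1 of the 4 libraries stood apart from the other 3 by Dixon's criterion, of 184 library-wide values and present genes checked (2.72%). The criterion is set at about 5% for 4 independent values. These libraries are pairs of technical replicates, so 5% is not the chance rate to read 2.72% against. UCHL1 was higher in replicate 2 of experiment 1, at 635 CPM against 483 to 499 CPM in the others. APOBEC3B was lower in replicate 1 of experiment 1, at 28.0 CPM against 30.1 CPM in each of the others. ABCC5 was lower in replicate 1 of experiment 2, at 78.1 CPM against 84.5 to 85.8 CPM. Replicate 2 of experiment 1 had 16871 genes at 1 CPM or more, against 16988 to 16999. The 100 highest genes took 18.79% of counts in replicate 1 of experiment 2, against 18.05% to 18.15%. Spike-in sequences, which no comparison used, took 0.719% of counts (95% exact Clopper-Pearson interval 0.713 to 0.725) in replicate 1 and 0.404% (0.400 to 0.407) in replicate 2 of experiment 1, with 61368 and 45984 counts, and at most 0.00818% in every other library; the part of this in any gene's level was not tested.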

How the results depend on the processing

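The number of genes present stayed within 1.5 times its value of 15998 under every threshold and omission tried, from 12427 at 5 CPM to 17447 at 0.5 CPM. The 1561 genes that differed between the experiments became 445 with DESeq2, which gave 6338 genes an adjusted p, 180 of 34126 with its filter on mean counts off (an alternative chosen after seeing the data) and 51 when a log2 fold change of at least 1 was also required, and 220 to 1498 when each library was left out in turn; without replicate 2 of experiment 1, the 220 split into 76 higher and 144 lower, against 714 and 847. With the replicate number as a block the count was 2174, but the numbers do not pair the samples: deviations of same-numbered libraries correlated at 0.078, and only 1 pair of differences exists. Without a filter it was 1134 and with DESeq2 size factors in edgeR 1583. All 20 named genes kept their direction in each alternative. DESeq2 gave 4 of them an adjusted p and called all 4; with its filter off it called 13 and lost 7. Without replicate 2 of experiment 1, 4 calls were lost, and without replicate 1 of experiment 2, 2 were. As shares of TPM rather than counts, the 100 highest genes took 33.8%, protein-coding genes 76.4%, mitochondrially encoded genes 22.3% and long noncoding genes 9.36%, against 18.2%, 89.6%, 8.53% and 4.09% of counts. With spike-in counts in the total, the protein-coding share was 89.4% and the mitochondrial share 8.50%. Leaving out each library gave 18.1% to 18.4%, 89.5% to 89.7%, 8.42% to 8.66% and 4.06% to 4.13% for these shares in the same order. At 5 CPM the number of members present moved by more than 1.5 times in 10 of 46 lists, and at 0.5 CPM in 2 (adrenal genes and testis antigens). Adrenal genes also went from 0 to 1 without replicate 1 of experiment 1 or with mitochondrial genes out of the total, and testis antigens from 1 to 2 without replicate 1 of experiment 2. The highest member of a list by TPM was also the highest by CPM in 26 of 46 lists. Depth limits genes under about 0.3 CPM, where 0 counts does not show absence.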
